A study of Mus musculus with 14 samples.

Results

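Chemokines and their receptors were described in the aorta and the liver of BT3xHuBL and HuBL mice. The genes were chosen by name: every feature of the 2 count tables named as a CC or CXC ligand or receptor, together with Cx3cl1, Cx3cr1, Xcl1, Xcr1 and the atypical receptors of the Ackr series. The rule took 64 of 24732 features, which carry 58 gene names, since some duplicated ligand genes have several features. Ackr1 is listed under its older symbol, Darc, and so was not taken by the rule.

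The 4 groups were 3 BT3xHuBL aortas, 3 HuBL aortas, 4 BT3xHuBL livers and 4 HuBL livers, all with a time label of 52 weeks and on a normal laboratory diet. Whether the time is an age is not given in the labels. What HuBL and BT3 stand for is not written out in the labels. Published work with these lines describes HuBL mice as carrying the gene for human apolipoprotein B and lacking the low-density lipoprotein receptor. It describes the BT lines as carrying T cells with a transgenic receptor directed at that apolipoprotein. Both genotypes would then share the lipoprotein alleles and differ in the T cell receptor. Sex and whether each library came from its own animal are not given in the labels, so p-values measure the spread between these libraries, which may be technical.

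Chemokines are small secreted proteins that guide leukocytes along gradients by binding receptors coupled to G proteins. Inflammatory ligands are induced by cytokines such as interferon gamma and tumour necrosis factor and recruit monocytes, neutrophils and effector T cells. Homeostatic ligands are made steadily by stromal cells and place lymphocytes and stem cells within tissues. Atypical receptors bind ligands without G protein signalling and remove or transport them. In atherosclerosis, Ccl2 with Ccr2 and Cx3cl1 with Cx3cr1 are known routes by which monocytes enter the plaque.

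Libraries held 41933263 to 65539765 counts in the aorta and 13228123 to 17992459 in the liver. Values are given as CPM, counts scaled to a library of 1000000 after TMM scaling within each tissue. TMM sets the bulk of features level between libraries, here apart for aorta and liver, so a CPM is compared only within 1 tissue. The kit reads the 3′ end of each transcript once, so CPM needs no correction for gene length and can be set side by side between genes. The hepatocyte marker list summed to 0.157 to 1.18 CPM in the aortas and to 106633 to 139983 CPM in the livers. The smooth muscle list summed to 11249 to 15275 CPM in the aortas and to 9.84 to 35.4 CPM in the livers, so the tissue labels and their defining markers went together. TCRB_Vb14, a T cell receptor variable segment that the tables list under an older name, had 32, 38 and 2 counts in BT3xHuBL aortas, against 10, 0 and 1 in HuBL aortas. In the liver it had 2, 3, 0 and 1 counts in BT3xHuBL libraries and 0 counts in each HuBL library. These counts overlapped between the genotypes in both tissues, so the segment did not settle the label of single libraries. The library labelled BT3xHuBL aorta 3 had far fewer than the other BT3xHuBL aortas, so the aorta result is also given without it.

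The liver ligands on which the genotype comparison turns include Cxcl9 and Cxcl10, neighbours of Cxcl11 at chr5:92321347-92365485 (GENCODE M21, GRCm38). Their promoters are shown because both ligands had lower values in BT3xHuBL livers and both are known targets of interferon gamma. Whether interferon gamma or these promoters had a part in the liver values was not tested. The windows run from 250 bases before to 50 bases after the start of each gene on the minus strand, chr5:92348840-92349139 for Cxcl10 and chr5:92328030-92328329 for Cxcl9, from RefSeq on GRCm38.p6. Capitals mark matches on either strand to the core of the interferon-stimulated response element, GAAANNGAAA, and to the kappaB consensus bound by NF-kB.
Cxcl10: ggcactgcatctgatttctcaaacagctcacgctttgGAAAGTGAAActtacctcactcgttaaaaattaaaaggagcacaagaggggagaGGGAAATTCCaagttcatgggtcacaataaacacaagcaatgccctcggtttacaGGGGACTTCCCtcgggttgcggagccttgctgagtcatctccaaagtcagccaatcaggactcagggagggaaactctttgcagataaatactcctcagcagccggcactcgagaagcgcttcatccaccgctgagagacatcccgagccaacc
Cxcl9: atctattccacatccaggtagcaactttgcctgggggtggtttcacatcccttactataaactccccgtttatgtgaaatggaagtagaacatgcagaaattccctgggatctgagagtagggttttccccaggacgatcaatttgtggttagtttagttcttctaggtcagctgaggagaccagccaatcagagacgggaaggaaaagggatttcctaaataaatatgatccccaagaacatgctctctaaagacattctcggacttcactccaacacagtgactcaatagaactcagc
The Cxcl10 window held 1 match to the response element core, which began 213 bases before the start. It also held 3 matches to the kappaB consensus, beginning 159, 104 and 103 bases before the start, the last pair overlapping each other. The Cxcl9 window held neither set of letters, which says only that they are not in this window. Of 32851 promoter windows in the RefSeq table, 3.44% held the response element core and 8.46% the kappaB consensus. Another pattern, TTCNNNGAA, which STAT proteins bind, stood in 8.30% of windows and in neither of these. A window was found for 43 of the 58 gene names, and Ccl5 was among those with none. Among the 43 genes, 12 held the kappaB consensus in a window. They were Ackr2, Ccl1, Ccl9, Ccl20, Ccl27a, Ccr1, Ccr3, Ccr6, Cxcl1, Cxcl2, Cxcl3 and Cxcl10. The response element core stood in 3 genes, namely Ccl19, Cxcl10 and Cxcl14. A gene can have several windows, so these counts by gene are not like the shares of windows.

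Of the 64 features, 46 were tested in the aorta, 9 had a few counts and were too low to test, and 9 were at 0. In the liver 29 were tested, 22 were detected but too low, and 13 were at 0. The 9 features at 0 in both tissues were Ccl26 and the marked copies of Ccl21a, Ccl21b and Ccl27b, whose near-identical copies could lose reads in counting. Chemokine ligands summed to 1607 to 2103 CPM per aorta library and to 534 to 680.2 CPM per liver library. Receptors summed to 315 to 422 CPM in the aorta and to 20.1 to 38.2 CPM in the liver.

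Cxcl12, the stromal ligand that retains Cxcr4-bearing cells, was the most abundant chemokine in both tissues, at a mean of 656 CPM in the aorta and 367 CPM in the liver. It made up 32.8% to 39.9% of ligand CPM in the aortas and 49.6% to 69.4% in the livers. Next in the aorta came Ccl6 and Cxcl16, at means of 301 and 286 CPM. Ccl6 is a myeloid CC ligand of rodents, and Cxcl16 is a membrane-anchored ligand that also acts as a scavenger receptor for oxidised lipoprotein. Cx3cl1, the membrane-anchored ligand of endothelium, and Ccl9, another rodent myeloid ligand, followed at 176 and 124 CPM. Among receptors, the Cxcl12-scavenging atypical receptor Ackr3 averaged 87.4 CPM in the aorta. In the liver the ligands after Cxcl12 were Ccl9 at 76.6, Cxcl9 at 35.3, Cxcl10 at 30.6 and the neutrophil attractant Cxcl1 at 24.4 CPM. Below these stood Ccl5, Ccl6 and Cxcl16, at 14.1, 13 and 9.56 CPM.

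**Figure D1:**
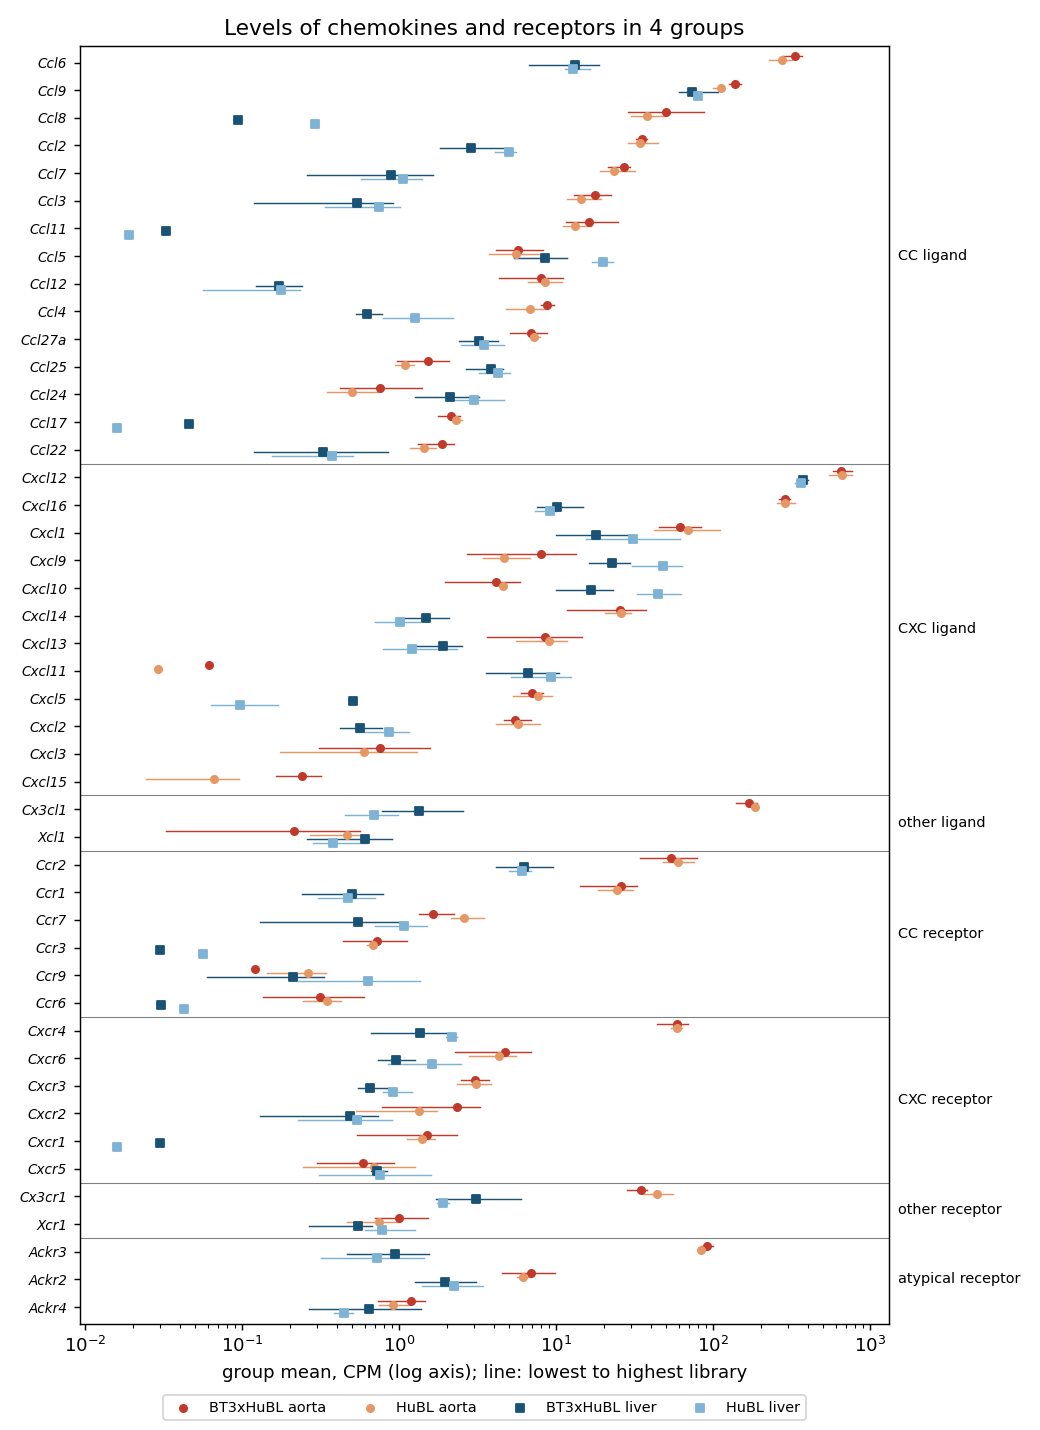
Mean level of 46 of the 47 features tested in the tissue contrast, in CPM on a log axis, for BT3xHuBL aorta, HuBL aorta, BT3xHuBL liver and HuBL liver; lines run from the lowest to the highest library and are left out where a library is at 0, and a group at 0 has no point. Most members lie further right in the aorta, while Cxcl9, Cxcl10, Cxcl11, Ccl5, Ccl24 and Ccl25 lie further right in the liver. Scaling was within each tissue, so the gap between tissues is not the log2 difference of the tissue contrast.

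Between the tissues, 31 of 47 members tested were higher in the aorta (66.0%) and 9 were lower in the aorta (19.1%) at an adjusted p under 0.05 in edgeR. Over all 15902 features tested, 46.8% were higher in the aorta and 39.4% lower in the aorta. A feature entered when it was kept in either tissue. The filter kept 46 members in the aorta, 29 in the liver and 28 in both. Members kept through the deeper aorta libraries alone had few liver counts by that filter, which favours a higher aortic value. The members' share and median are therefore not a test of an aortic excess. The median log2 difference of aorta over liver was 2.24 over the members and 0.18 over all features. Cxcl3 and Cxcl15 were at 0 in every liver library, and with both set to their bound the median was again 2.24. The contrast scaled all 14 libraries together by TMM. Scaled by library totals instead, an alternative chosen after seeing the data, the median of all features moved by 0.76 to 0.95, with 66.1% of features higher and 22.2% lower in the aorta. On that scale 37 members were higher and 6 lower in the aorta, with a median of 2.99 over the 47. Ackr4, Ccl27a, Ccl9, Ccr7, Cxcl1 and Cxcl12 were then higher in the aorta, and Ccr9, Cxcr5 and Xcl1 no longer passed. The log2 differences below are on the TMM scale. Aorta and liver libraries carry names from different ranges and differ in depth, so tissue and library series cannot be told apart, and the contrast is read as the order of levels.

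CC ligands of the Ccl2 cluster and receptors of monocytes were among the members higher in the aorta. The log2 difference of aorta over liver was 7.30 (SE 0.45) for Ccl8, 2.42 (SE 0.16) for Ccl2 and 2.45 (SE 0.21) for Ccr2, the receptor of Ccl2. Ccl11, the eosinophil attractant eotaxin, averaged 14.6 CPM in the aorta and had 3 counts over the 8 liver libraries. The Cx3cl1 and Cx3cr1 pair differed by 6.75 (SE 0.19) and 3.23 (SE 0.22). For the Cxcl12 receptors, Cxcr4 and Ackr3, the difference was 4.34 (SE 0.16) and 5.99 (SE 0.19), while Cxcl12 itself gave 0.07 (SE 0.10, adjusted p 0.491 in edgeR). Scaled by library totals, Cxcl12 gave 0.84 (SE 0.09).

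The 9 members lower in the aorta held Cxcl9, Cxcl10 and Cxcl11, known as ligands of Cxcr3, the receptor of effector T and NK cells. GENCODE M21 lists Cxcl11 as a polymorphic pseudogene, intact in some mouse strains and not in others. The log2 difference of aorta over liver was −3.20 (SE 0.35) for Cxcl9, −3.41 (SE 0.26) for Cxcl10 and −8.16 (SE 0.49) for Cxcl11. Cxcr3 itself went the other way, at 1.23 (SE 0.20). Also lower in the aorta were Ccl5, the T cell and monocyte ligand RANTES, at −1.98 (SE 0.21), the eosinophil ligand Ccl24 at −2.80 (SE 0.36) and Ccl25 at −2.42 (SE 0.21). Ccl25 guides lymphocytes through Ccr9, which was lower as well, with Cxcr5 and Xcl1. The 7 members that did not pass were Ackr4, Ccl27a, Ccl9, Ccr7, Cxcl1, Cxcl12 and Xcr1.

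In the liver, none of the 29 members passed an adjusted p of 0.05 in edgeR. The members of smallest p, the ligands Ccl5, Cxcl10 and Cxcl9, had lower values in BT3xHuBL than in HuBL livers, while others, such as the monocyte ligand Cx3cl1, had higher means. The background was 0% of 12453 features called. At an unadjusted p under 0.05, 5 members (17.2%) were counted, all with log2 fold changes below 0, against 11.1% of all features. In 4 members (13.8%) every BT3xHuBL library lay below every HuBL library, against 3.58% of all features, and in 0 members did every BT3xHuBL library lie above, against 2.99%. DESeq2 called 3 members, all lower in BT3xHuBL, among 133 features or 1.07% of those tested, and limma-voom called 0.

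Ccl5 gave the smallest p of the liver members. It had 8.79, 11.6, 7.93 and 5.35 CPM in BT3xHuBL livers, against 19, 20.5, 23 and 16.9 CPM in HuBL livers. The highest BT3xHuBL liver lay below the lowest HuBL liver. Ccl5 averaged 8.42 ± 2.59 CPM in BT3xHuBL and 19.9 ± 2.56 CPM in HuBL livers (SD, n = 4 each), and the log2 fold change was −1.24 (SE 0.20, adjusted p 0.134 in edgeR). In DESeq2 its adjusted p was 9.82e-06, the lowest of 8 other settings, whose highest was 0.17. Without BT3xHuBL liver replicate 2 it passed in edgeR with an adjusted p of 0.0308, and leaving out other libraries in turn gave up to 0.46. The gene lies at chr11:83525778-83530518 on the minus strand, beside Ccl9, Ccl6, Ccl3 and Ccl4.

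Among the interferon-inducible Cxcr3 ligands, Cxcl10 had 23, 19.2, 14.7 and 9.93 CPM in BT3xHuBL livers, against 41.8, 41.8, 61.8 and 32.5 CPM in HuBL livers. The groups did not overlap. The log2 fold change was −1.41 (SE 0.28, adjusted p 0.215 in edgeR). Cxcl9 had 21.6, 23.9, 29.4 and 16.1 CPM in BT3xHuBL livers and 41.2, 57.5, 62.7 and 30.4 CPM in HuBL livers. These groups did not overlap either, and lay closest at BT3xHuBL liver 3 and HuBL liver 4. The log2 fold change was −1.07 (SE 0.25, adjusted p 0.281 in edgeR). DESeq2 gave adjusted p-values of 3.48e-05 for Cxcl10 and 0.00321 for Cxcl9, at the low end of settings that reached 0.269 and 0.343. Cxcl11 had 5.09, 7.13, 10.4 and 3.57 CPM in BT3xHuBL livers, against 5.17, 9.87, 12.3 and 9.84 CPM in HuBL livers, and these overlapped, with a log2 fold change of −0.51 (SE 0.34). Their receptor Cxcr3 was near the limit of detection, at 0.546, 0.859, 0.580 and 0.595 CPM in BT3xHuBL and 0.820, 0.848, 1.2 and 0.787 CPM in HuBL livers, overlapping through the second BT3xHuBL library.

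**Figure D2:**
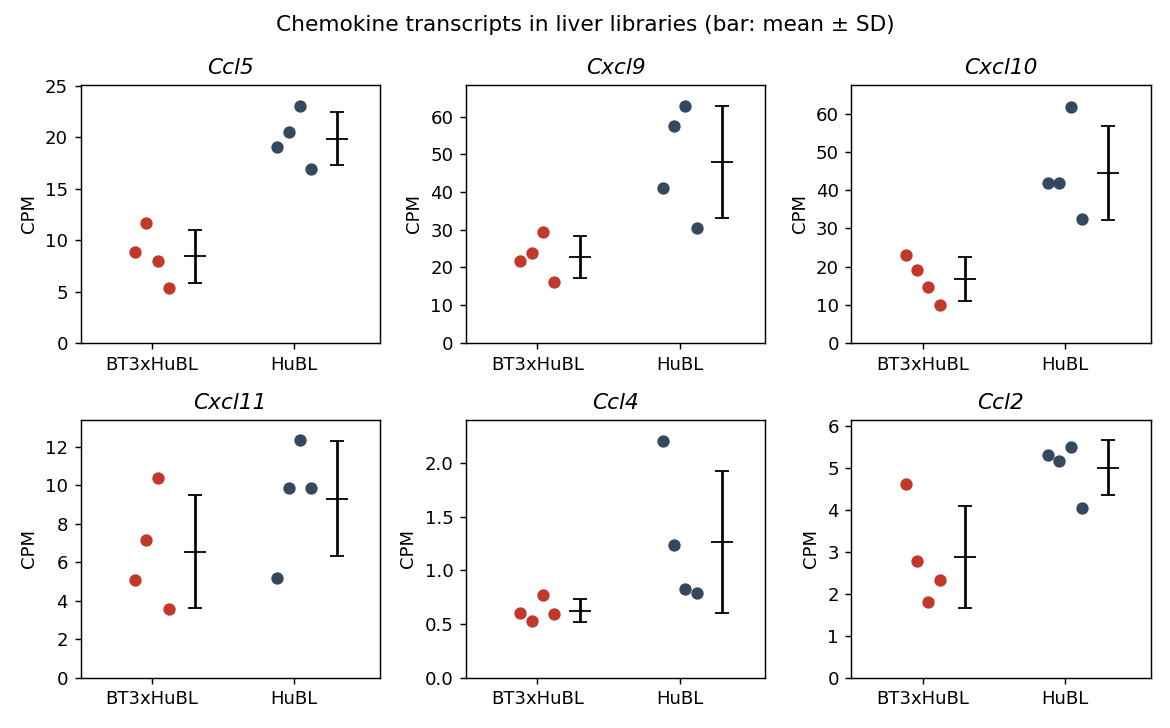
Level in CPM of 6 ligands in each liver library, BT3xHuBL left and HuBL right, 4 libraries each, with the mean ± SD beside the points; each panel has its own axis from 0. For Ccl5, Cxcl9, Cxcl10 and Ccl4 the BT3xHuBL points all lie below the HuBL points, for Ccl4 by a narrow margin, and for Cxcl11 and Ccl2 they overlap.

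Ccl4, a CC ligand made by activated T cells, NK cells and macrophages, had 10, 8, 12 and 10 counts in BT3xHuBL livers, against 35, 16, 11 and 14 counts in HuBL livers. In CPM these were 0.606, 0.528, 0.773 and 0.595 in BT3xHuBL and 2.21, 1.23, 0.827 and 0.787 in HuBL livers. The groups did not overlap but nearly met, and HuBL liver 1 was well above the rest. The log2 fold change of −1.01 (SE 0.39) became −0.58 without that library. Ccl2, the chief monocyte attractant, had 4.61, 2.77, 1.8 and 2.32 CPM in BT3xHuBL livers and 5.3, 5.17, 5.49 and 4.05 CPM in HuBL livers. BT3xHuBL liver 1 lay within the HuBL range, and the log2 fold change was −0.79 (SE 0.27, adjusted p 0.344 in edgeR). Over the CC ligands tested in the liver, 9 of 10 had log2 fold changes below 0 with a median of −0.34, against a median of 0.0092 over all features. Over all 29 members 20 were below 0 and the median was −0.23. Without BT3xHuBL liver 1 the median of the CC ligands was −0.62 and that of all members −0.42. The members' median was −0.43 in limma-voom and −0.12 with all 14 libraries in 1 fit.

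Cxcr4, the signalling receptor of Cxcl12, had 2.12, 1.52, 1.1 and 0.654 CPM in BT3xHuBL livers, against 2.14, 2.24, 2.33 and 1.97 CPM in HuBL livers. Only BT3xHuBL liver 1 reached the HuBL range, and the log2 fold change was −0.68 (SE 0.32, adjusted p 0.451 in edgeR). Cxcl12 itself had 342, 344, 396 and 403 CPM in BT3xHuBL livers and 395, 383, 338 and 332 CPM in HuBL livers, which overlapped, with a log2 fold change of 0.04 (SE 0.10). All 4 CXC receptors tested were below 0, at a median of −0.59. They were Cxcr4, Cxcr3, the B cell follicle receptor Cxcr5 and Cxcr6, the Cxcl16 receptor of tissue-resident T and NKT cells, for which the log2 fold change was −0.77 (SE 0.37). Ccr7, which leads T cells and dendritic cells to lymph nodes, gave −0.96 (SE 0.48). Ccr2, the receptor of Ccl2, gave 0.03 (SE 0.26). Of the 3 CC receptors tested 2 were above 0, and of the 9 CXC ligands 4 were above and 5 below.

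A few members had higher means in BT3xHuBL livers, with 1 library far above the others. Cx3cl1 had 2.55, 1.06, 0.773 and 0.951 CPM in BT3xHuBL livers, against 0.883, 0.463, 0.978 and 0.450 CPM in HuBL livers, a log2 fold change of 0.95 (SE 0.45, adjusted p 0.453 in edgeR). Its receptor Cx3cr1, of patrolling monocytes, had 5.94, 1.72, 2.71 and 1.96 CPM in BT3xHuBL and 2.08, 1.85, 1.73 and 1.97 CPM in HuBL livers, a log2 fold change of 0.69 (SE 0.37). BT3xHuBL liver 1 was the highest of all 8 livers for both, and without it the log2 fold changes were 0.42 and 0.15. That library was also the highest for Cxcl16, with 14.7, 8.52, 7.48 and 9.39 CPM in BT3xHuBL and 10.2, 9.1, 9.78 and 7.31 CPM in HuBL livers. The neutrophil ligand Cxcl5, too low to test, had 30, 2, 1 and 0 counts in BT3xHuBL and 1, 1, 1 and 3 counts in HuBL livers. Of the 29 members tested, 8 had their highest liver value in BT3xHuBL liver 1 and 11 in HuBL liver 3.

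The stromal ligands Cxcl14 and Cxcl13 also had higher means in BT3xHuBL livers. Cxcl14 had 2.06, 0.991, 1.22 and 1.61 CPM in BT3xHuBL livers, against 0.946, 0.694, 1.35 and 1.01 CPM in HuBL livers, and the groups overlapped. Cxcl13, the B cell attractant, had 2.49, 1.52, 1.22 and 2.38 CPM in BT3xHuBL livers and 2.33, 0.848, 0.827 and 0.787 CPM in HuBL livers, with HuBL liver 1 apart from its group. The log2 fold changes were 0.56 (SE 0.32) and 0.66 (SE 0.40), and that of Cxcl13 was 1.21 without HuBL liver 1. The more abundant ligands Ccl9, Cxcl1 and Ccl6 overlapped between genotypes. Ccl9 had 63.8, 60.1, 62.8 and 106 CPM in BT3xHuBL and 82.6, 75, 79 and 82.9 CPM in HuBL livers, all BT3xHuBL livers but the fourth lying below the HuBL livers. Cxcl1 had 16, 29.5, 16.6 and 9.87 CPM in BT3xHuBL and 16, 30.9, 61.1 and 15.3 CPM in HuBL livers, and Ccl6 had 14.2, 13.3, 6.7 and 18.6 CPM in BT3xHuBL and 16.4, 11.6, 11.4 and 11.8 CPM in HuBL livers. The log2 fold change was −0.12 (SE 0.17) for Ccl9, −0.77 (SE 0.54) for Cxcl1 and 0.05 (SE 0.27) for Ccl6. The Cxcl1 value became −0.20 without HuBL liver 3.

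Several cell type lists, of lymphocytes and of other cells, lay to 1 side of 0 in the liver, and 0 genes of any list passed adjustment in edgeR. All 10 T cell markers tested were below 0 in BT3xHuBL livers with a median log2 fold change of −0.86, and 6 had an unadjusted p under 0.05, against 11.1% of all features. The T cell list summed to 8.03 to 14 CPM in BT3xHuBL livers and to 13.9 to 31.0 CPM in HuBL livers, and none of its genes was at 0 throughout. Cd4 averaged 1.21 ± 0.624 CPM in BT3xHuBL and 3.05 ± 0.550 CPM in HuBL livers (SD, n = 4 each), and the log2 fold change was −1.34 (SE 0.36). All 4 NK and cytotoxic cell markers tested were below 0 as well, at a median of −0.55, and that list summed to 7.73 to 10.3 CPM in BT3xHuBL livers and to 8.55 to 13.8 CPM in HuBL livers. Below 0 as well were all 6 B cell markers at a median of −0.33, all 5 plasma cell markers at −0.65, all 3 smooth muscle markers at −0.89 and 4 of 5 patrolling monocyte markers at −0.46. Above 0 were all 5 fibroblast markers at a median of 0.67, 4 of 5 bile duct cell markers at 0.67 and 3 of 5 hepatic stellate cell markers at 0.55. In edgeR, 3 of 5 plasma cell and 2 of 3 smooth muscle markers had an unadjusted p under 0.05. So had 3 of 5 hepatic stellate cell, 2 of 5 fibroblast, 1 of 5 bile duct cell and 1 of 4 NK markers. The B cell and patrolling monocyte lists had 0, and counts of this kind were not confined to T cells. Of 8 macrophage markers 3 were above and 5 below 0, with a median of −0.072. In bulk tissue, fewer cells of a type and less RNA per cell cannot be told apart, and the part of these cells in the ligand values was not tested.

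In the liver, 13 of 17 NF-kB response genes and inducing cytokines tested were below 0, against 5998 of all 12453 features. Their median was −0.28, and the list summed to 271 to 354 CPM in BT3xHuBL and to 315 to 348 CPM in HuBL livers. In edgeR 4 of them had an unadjusted p under 0.05, against 11.1% of all features. Those 4 were the cytokines Tnf and Il1a, the adhesion molecule Vcam1 and the adaptor Traf1, and 0 passed adjustment in edgeR. Tnf averaged 0.441 ± 0.266 CPM in BT3xHuBL livers and 1.16 ± 0.260 CPM in HuBL livers (SD, n = 4 each), and the log2 fold change was −1.37 (SE 0.42). Interferon gamma, the main inducer of the Cxcr3 ligands, was too low to test in the liver. Ifng averaged 0.0636 ± 0.0527 CPM in BT3xHuBL and 0.195 ± 0.175 CPM in HuBL livers (SD, n = 4 each). The part of these cytokines in the ligand values was not tested. Of 26 G protein, arrestin and other signalling genes downstream of chemokine receptors, 9 were above and 17 below 0, with a median of −0.049. Of 12 genes that cleave or bind chemokines, 4 were above and 8 below 0, and of 7 lymphoid organising genes 3 were above and 4 below. Chemoattractants under other names gave 1 above and 3 below, the last including Rarres2, which encodes chemerin. Rarres2 averaged 418 ± 31.6 CPM in BT3xHuBL and 511 ± 30.3 CPM in HuBL livers (SD, n = 4 each), and the log2 fold change was −0.29 (SE 0.10).

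In the aorta, none of the 46 members tested passed in edgeR, DESeq2 or limma-voom, and 4 of 15400 features, 0.026%, were called in edgeR. At an unadjusted p under 0.05, 2 members (4.35%) were counted, Ccl9 and Cxcl15, against 4.08% of all features. The members' log2 fold changes ran from −1.16 for Xcl1 to 1.77 for Cxcl15, both of low counts. Every BT3xHuBL library lay above every HuBL library in those same 2 members, against 4.38% of features, and in 0 members did every BT3xHuBL library lie below, against 4.89%. The members' shares stood near the background. Without the library labelled BT3xHuBL aorta 3, 0 members and 27 features were called.

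Ccl9, at chr11:83572919-83578636, had 136, 149 and 125 CPM in BT3xHuBL aortas, against 117, 117 and 99.9 CPM in HuBL aortas. All BT3xHuBL values were higher, and the log2 fold change was 0.30 (SE 0.09, p 0.00838 unadjusted and 0.901 adjusted in edgeR). Its neighbour Ccl6 had 369, 343 and 275 CPM in BT3xHuBL aortas and 272, 318 and 227 CPM in HuBL aortas, which overlapped, with a log2 fold change of 0.27 (SE 0.14). Ccl4 in the same cluster had 9.66, 8.53 and 7.93 CPM in BT3xHuBL aortas and 6.89, 8.82 and 4.74 CPM in HuBL aortas, again overlapping, with 0.36 (SE 0.21). Ccl25 had 0.960, 1.5 and 2.08 CPM in BT3xHuBL and 0.931, 1.08 and 1.23 CPM in HuBL aortas. Cxcl15, a mouse neutrophil ligand known from lung, had only 18, 16 and 10 counts in BT3xHuBL aortas and 5, 1 and 6 counts in HuBL aortas.

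Over the CC ligands 12 of 15 had log2 fold changes above 0 in the aorta, with a median of 0.29, against −0.0044 over all features. That pattern depended on single libraries. Without BT3xHuBL aorta 1 the count was 8 of 15 and the median 0.047, and without HuBL aorta 3 they were 10 of 15 and 0.16. Without HuBL aorta 1 they were 10 of 15 and 0.23, and without HuBL aorta 2 they were 13 of 15 and 0.48. Leaving out the library labelled BT3xHuBL aorta 3 gave 14 of 15 and a median of 0.36. Leaving out BT3xHuBL aorta 2 gave 13 of 15 and 0.25. BT3xHuBL aorta 1 was the highest of the 6 aortas in 22 of 46 members. Ccl8, a CC ligand of the Ccl2 cluster, had 87.4, 32.9 and 28.7 CPM in BT3xHuBL aortas, against 34.6, 49.9 and 29.7 CPM in HuBL aortas. Ccl11 had 24.7, 11.5 and 12.4 CPM in BT3xHuBL and 11.7, 16.6 and 11 CPM in HuBL aortas, and Cxcl9 had 13.4, 7.85 and 2.68 CPM in BT3xHuBL and 3.57, 3.42 and 6.83 CPM in HuBL aortas. The first BT3xHuBL value was the highest in each. Ccl19, a lymph node ligand of Ccr7, had 37 counts in that library on 1 of its 2 marked copies and 0 in the other 13 libraries.

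**Figure D3:**
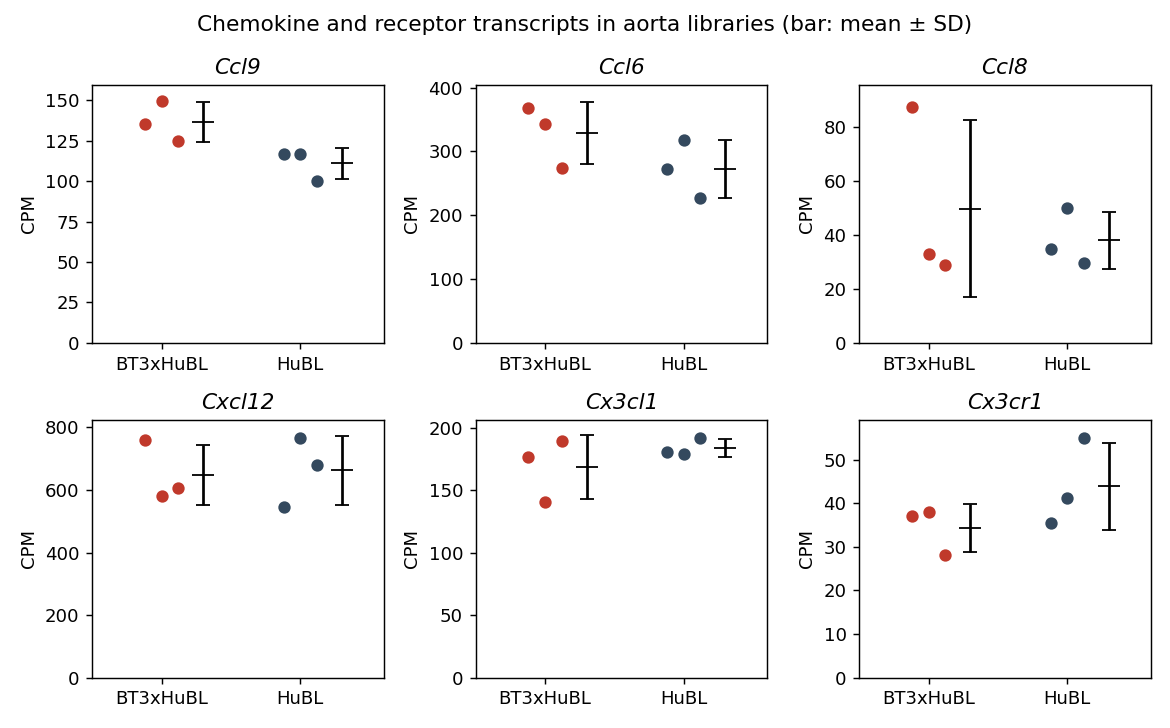
Level in CPM of 5 ligands and the receptor Cx3cr1 in each aorta library, BT3xHuBL left and HuBL right, 3 libraries each, with the mean ± SD beside the points; each panel has its own axis from 0. The BT3xHuBL points all lie above the HuBL points for Ccl9 alone among these 6, and 1 BT3xHuBL library stands high for Ccl8.

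Of the abundant aortic ligands, Cxcl12 had 759, 581 and 606 CPM in BT3xHuBL aortas, against 545, 765 and 679.9 CPM in HuBL aortas. Cxcl16 had 292, 308 and 260.0 CPM in BT3xHuBL aortas and 254, 329.6 and 275 CPM in HuBL aortas. Cx3cl1 had 176, 140.3 and 189 CPM in BT3xHuBL aortas and 181, 179 and 192 CPM in HuBL aortas. All of these overlapped, with log2 fold changes of −0.03 (SE 0.14), 0.0042 (SE 0.11) and −0.12 (SE 0.11). Cxcl1 ranged widely within each genotype, at 44.9, 55.2 and 83.8 CPM in BT3xHuBL and 54.8, 109.7 and 42.1 CPM in HuBL aortas. Ccl2 gave 36, 32 and 37.6 CPM in BT3xHuBL and 28.4, 44.5 and 28.6 CPM in HuBL aortas, a log2 fold change of 0.06 (SE 0.17).

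The receptors Cx3cr1, Ccr2, Ccr7 and Ackr3 overlapped between the genotypes in the aorta. Cx3cr1 had 37, 38 and 28 CPM in BT3xHuBL aortas and 35.4, 41.1 and 55 CPM in HuBL aortas. The log2 fold change was −0.35 (SE 0.18) for Cx3cr1, or −0.15 without HuBL aorta 3, and Ccr2 gave −0.15 (SE 0.37). Ccr7 had 1.36, 1.33 and 2.24 CPM in BT3xHuBL and 2.19, 2.13 and 3.45 CPM in HuBL aortas, a log2 fold change of −0.66 (SE 0.31). Ackr3 had 99.5, 89.1 and 83.9 CPM in BT3xHuBL and 81.6, 88.8 and 81.5 CPM in HuBL aortas, a log2 fold change of 0.11 (SE 0.08). Ccr9 and the dendritic cell ligand Xcl1 were at the edge of detection, with 19, 2 and 0 and 32, 3 and 2 counts in BT3xHuBL aortas, against 19, 14 and 9 and 34, 11 and 38 counts in HuBL aortas. Darc, which carries chemokines across venules, gave −0.046 (SE 0.40) in the aorta and 0.17 (SE 0.36) in the liver.

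Neutrophil-directed members of the aorta were scattered within both genotypes. Cxcl2 had 4.63, 4.82 and 6.84 CPM in BT3xHuBL aortas, against 5.01, 7.9 and 4.13 CPM in HuBL aortas, and Cxcl5 had 8.26, 6.79 and 5.98 CPM in BT3xHuBL and 8.12, 9.34 and 5.3 CPM in HuBL aortas. Cxcl3 was lower in level, at 1.57, 0.374 and 0.309 CPM in BT3xHuBL and 0.310, 1.3 and 0.174 CPM in HuBL aortas. Each of these ligands overlapped between the genotypes. Cxcr2, their main receptor, had 2.93, 3.25 and 0.780 CPM in BT3xHuBL aortas and 0.528, 1.74 and 1.71 CPM in HuBL aortas, with a log2 fold change of 0.82 (SE 0.61). Cxcr1 had 2.32, 1.62 and 0.536 CPM in BT3xHuBL and 1.68, 1.12 and 1.39 CPM in HuBL aortas. The third BT3xHuBL aorta was the lowest of its group for both receptors. Neutrophil markers summed to 46.9 to 91.2 CPM in BT3xHuBL aortas and to 39.8 to 61.5 CPM in HuBL aortas, with 4 of 5 tested above 0, and their part in the receptor values was not tested.

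The ligands Ccl17 and Ccl22, which dendritic cells and macrophages make and which attract regulatory and helper T cells through Ccr4, were low in the aorta. Ccl17 had 2.43, 2.18 and 1.77 CPM in BT3xHuBL aortas, against 2.5, 2.1 and 2.23 CPM in HuBL aortas. Ccl22 had 2.23, 2.05 and 1.32 CPM in BT3xHuBL and 1.16, 1.71 and 1.42 CPM in HuBL aortas. Both overlapped, with log2 fold changes of −0.10 (SE 0.24) and 0.39 (SE 0.31). Ccr4 itself was too low to test, with 2, 3 and 7 counts in BT3xHuBL and 1, 0 and 13 counts in HuBL aortas. Ccr8, a receptor of regulatory T cells, had 6, 0 and 4 counts in BT3xHuBL and 0, 8 and 38 counts in HuBL aortas, most of them in HuBL aorta 3. Ccr6, which binds Ccl20, was tested at 0.594, 0.135 and 0.211 CPM in BT3xHuBL and 0.372, 0.244 and 0.427 CPM in HuBL aortas, while Ccl20 had 4 counts in all over the 6 aortas.

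Of the other CC members in the aorta, Ccl3 had 17.5, 22.4 and 12.8 CPM in BT3xHuBL aortas and 12.4, 19.2 and 11.7 CPM in HuBL aortas. Ccl7 had 29.5, 21.3 and 29.5 CPM in BT3xHuBL and 19.2, 31.5 and 19.1 CPM in HuBL aortas, and Ccl12 had 11, 8.75 and 4.29 CPM in BT3xHuBL and 6.63, 10.8 and 7.79 CPM in HuBL aortas. These monocyte ligands overlapped between the genotypes. Ccr1, a receptor of Ccl3 and Ccl5, had 32.5, 30.6 and 14.1 CPM in BT3xHuBL and 18.4, 30.7 and 24.3 CPM in HuBL aortas, and Ccr2 had 79, 48.8 and 34 CPM in BT3xHuBL and 47.5, 56.9 and 75 CPM in HuBL aortas. Both receptors spread over more than the gap between the group means. Ackr2, which scavenges inflammatory CC ligands, had 6.53, 9.74 and 4.53 CPM in BT3xHuBL and 5.62, 5.84 and 6.88 CPM in HuBL aortas. In the liver it had 3.09, 1.45, 2.0 and 1.25 CPM in BT3xHuBL and 1.39, 3.39, 2.11 and 2.02 CPM in HuBL libraries. Ackr2 overlapped between the genotypes in both tissues, as did Xcr1, the receptor of cross-presenting dendritic cells, in the aorta. Xcr1 had 1.52, 0.763 and 0.698 CPM in BT3xHuBL and 1.01, 0.464 and 0.759 CPM in HuBL aortas.

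Beside the aortic members, all 6 plasma cell markers were below 0 in BT3xHuBL aortas at a median log2 fold change of −1.90. In edgeR 5 of these markers had an unadjusted p under 0.05, against 4.08% of all features. That list summed to 194 to 302 CPM in BT3xHuBL aortas and to 748 to 1223 CPM in HuBL aortas. Of 7 NK and cytotoxic cell markers 6 were above 0, at a median of 0.58, and all 6 white adipocyte markers were above 0, at 0.50. Above 0 as well were 4 of 5 neutrophil markers, at a median of 1.32, and 3 of 4 Kupffer cell markers, at 0.82. The part of these cells in the members' values was not tested. All 8 B cell markers were below 0 in BT3xHuBL aortas at a median log2 fold change of −0.79, and 3 had an unadjusted p under 0.05 in edgeR. The B cell list summed to 42.0 to 49.2 CPM in BT3xHuBL aortas and to 52.0 to 65.0 CPM in HuBL aortas. Of 10 T cell markers 4 were above and 6 below 0, and the list summed to 22.8 to 39.1 CPM in BT3xHuBL and to 30.9 to 35.5 CPM in HuBL aortas. Macrophage markers summed to 3438 to 3703 CPM in BT3xHuBL and to 3226 to 3922 CPM in HuBL aortas. Of the 20 NF-kB response genes and cytokines, 9 were above and 11 below 0 with a median of −0.017. Signalling genes downstream of the receptors gave 13 above and 14 below, and genes that cleave or bind chemokines gave 4 above and 10 below. Lymphoid organising genes gave 5 above and 6 below, and chemoattractants under other names 3 above and 2 below. None of these pathway genes or cell type markers passed adjustment in edgeR.

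Setting the tissues side by side, the 3 members with the lowest liver values had aortic log2 fold changes of 0.05 (SE 0.33) for Ccl5, −0.13 (SE 0.34) for Cxcl10 and 0.79 (SE 0.63) for Cxcl9. The difference between the tissues' genotype effects was tested as an interaction in 28 members, and 0 passed in edgeR, DESeq2 or limma-voom, against 0% of 11951 features in edgeR. DESeq2 gave no adjusted p for 23 of the 28. At an unadjusted p under 0.05, 7 members (25.0%) were counted, against 8.61% of all features. In 5 of them, Ccl5, Ccl4, Cxcl9, Cxcl10 and Ccl2, the aortic fold change was the higher one. In Cx3cl1 and Cx3cr1 it was the lower one. The interaction, aorta minus liver, was 1.31 (SE 0.41, adjusted p 0.422 in edgeR) for Ccl5 and 1.86 (SE 0.63, adjusted p 0.482) for Cxcl9. It was 1.39 (SE 0.46) for Ccl4 and 1.29 (SE 0.47) for Cxcl10. All 10 CC ligands tested had an interaction above 0, at a median of 0.70, against 5975 of 11951 features. Without BT3xHuBL aorta 1, on which the aortic values of these ligands depended, 9 of 10 were above 0 with a median of 0.59. With another single library left out, 9 or all 10 were above 0, with medians of 0.60 to 1.02. Of the 8 CXC ligands tested 4 were above and 4 below 0, and of the 3 CC receptors 1 was above and 2 below. Over the 28 members the median was 0.44.

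**Figure D4:**
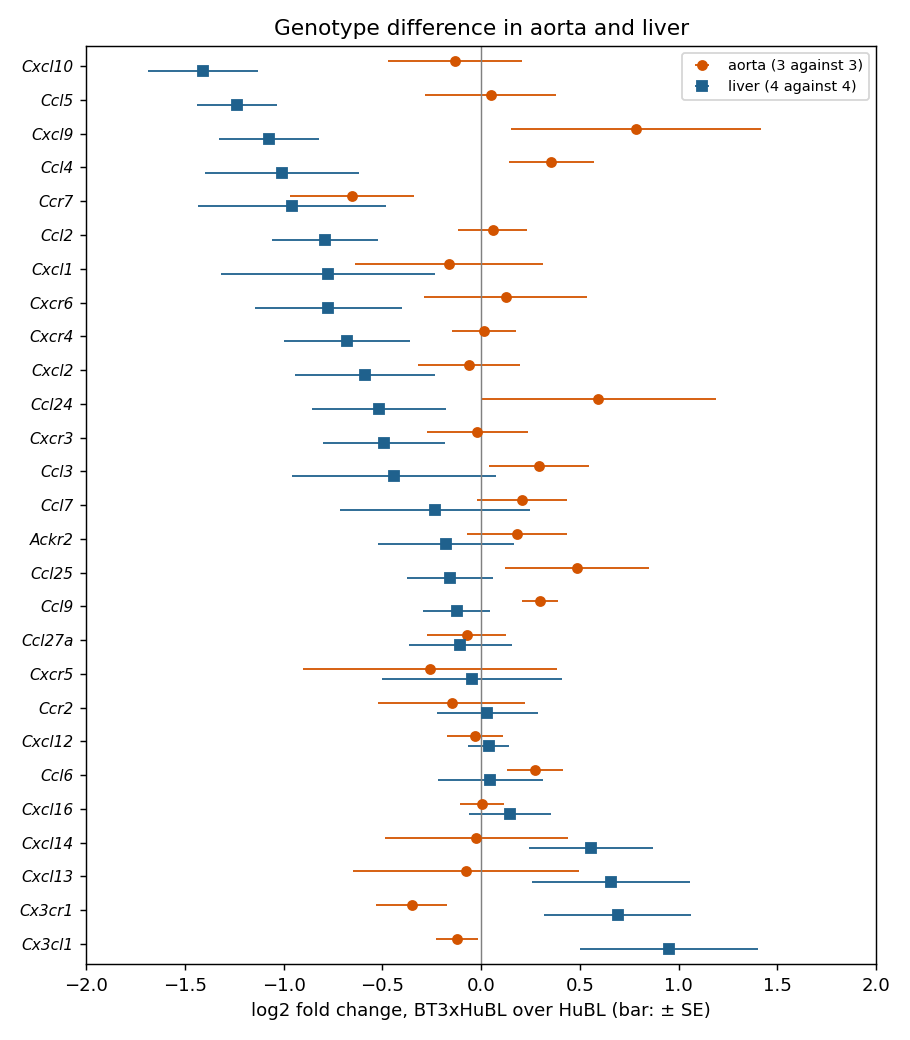
Log2 fold change of BT3xHuBL over HuBL with its SE for 27 of the 28 members tested in both tissues, aorta as circles and liver as squares, ordered by the liver value. Liver values of Cxcl10, Ccl5, Cxcl9 and Ccl4 lie lowest, from −1.41 to −1.01, while their aortic values lie between −0.13 and 0.79, and no member passed adjustment in either tissue.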

How the data were processed

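The deposited values are counts per feature, 1 table per tissue over the same features, not normalized. Per the labels' protocols, libraries were made with Lexogen QuantSeq V2, which reads transcript 3′ ends. The submitters' processing notes name HTSeq 2.0 and, as the build, GRCm38. For the aligner, annotation and strand setting, values were not given in the sources used here, so overlapping genes, marked as such for Cxcl16, Ccl27a and Ackr4, may share reads. Positions come from GENCODE M21.

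Each tissue was fitted over its whole table in R 4.3.3 with edgeR 4.0.16, after filterByExpr and TMM scaling. BT3xHuBL was compared with HuBL by the robust quasi-likelihood F-test, and two-sided p-values were adjusted by Benjamini-Hochberg and read at 0.05. The interaction used features kept in both tissues, and the tissue contrast those kept in either. CPM, scaled within each tissue, and log2 fold changes (prior count 0.125) were computed here. Counting error alone limits low members. Libraries of a group differed by 12.2 to 75.7 in chi-square per degree of freedom, so none was repeated. Alternatives were DESeq2 1.42.0, limma-voom (limma 3.58.1), other scaling and filters, a replicate block and each library left out. The pipeline was tested on simulated data, with low-level features left unchanged. Of 1.5-fold changes 54.5% were recovered in the aorta and 33.8% in the liver. Of 2-fold changes 81.2% and 77.1% were recovered, and of 3-fold changes 87.7% and 95.4%. False calls were 23 of 172 in the aorta and 14 of 152 in the liver. The real tables gave 4 calls in the aorta and 0 in the liver. Adjustment is more lenient where many features are changed, as in the simulated data. The shares recovered therefore do not give the chance of a call in the real tables, where it can be lower.

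Members given in full were the 6 of smallest p in each direction per genotype test, the 8 most abundant per tissue and the 4 of smallest interaction p. Others were named by range, as partners or for standing out, after their values were seen. One member is not reported here by name or value and is counted only in totals. Members and lists were chosen with earlier results of these data known. Plots used matplotlib 3.10.9.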

Additional observations from a re-analysis of the deposited data

Results flagged for a closer look

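In 58 liver member groups of 4 libraries, 6 held a library far from the rest of its group by Dixon's gap test, where chance flags about 1 in 20 groups, or 2.9 here. In BT3xHuBL livers, Ccl9 was 106 CPM in replicate 4 and 60.1 to 63.8 CPM in the others. Cx3cl1 was 2.55 CPM in BT3xHuBL replicate 1 and 0.773 to 1.06 CPM in the others of that group. Cxcr3 was 0.859 CPM in BT3xHuBL replicate 2, against 0.546 to 0.595 CPM in the rest. In HuBL livers, Cxcr3 was 1.20 CPM in replicate 3 and 0.787 to 0.848 CPM in the others. Ccl6 was 16.4 CPM in HuBL replicate 1, with 11.4 to 11.8 CPM in the others. Cxcl13 was 2.33 CPM in the same HuBL library and 0.787 to 0.848 CPM in the rest. Aorta groups, with 3 libraries each, were not examined this way.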

How the results depend on the processing

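The count of liver members called was 0 in edgeR, 3 with DESeq2, 2 with the replicate number as a block (Ccl5 and Cxcl9) and 0 to 1 with a library left out. The counts for the aorta, the interaction and the tissue contrast stayed within 1.5 times under every alternative run, and the tissue count was 43 by library totals without TMM, an alternative added after seeing the data. The block moved the features called to 14 in the aorta and 10 in the liver. Same-numbered libraries correlated at −0.0575, 0.135 and 0.00722 in the aorta and at −0.0423, 0.159, 0.102 and 0.0686 in the liver, so the numbers were not taken as pairs. In the aorta 2 of 6 and in the liver 3 of 8 libraries correlated best with their own number. Features called in the aorta, 4 in edgeR, were 68 in DESeq2, 9 with no low-count filter and 0 in limma-voom.

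Of the liver members that passed under a setting, Ccl5, Cxcl9 and Cxcl10, none changed sign in the settings run. The aortic median was −0.00031 under the block, and Ccl6 in the liver was −0.025 in limma-voom and −0.0081 under the block. With a library left out, the aortic median ran from −0.15 to 0.19, Cxcl12 from −0.16 to 0.084, Cxcl16 from −0.075 to 0.12 and Cxcl1 from −0.46 to 0.34. In the liver, Cxcl16 ran from −0.099 to 0.26, Cxcl12 from −0.0034 to 0.083 and Ccl6 from −0.17 to 0.26. Where a call or sign moved, the cause was not tested. In the liver 22 members with counts were too low to test, and depth and low expression were not separated.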
